A study of Mus musculus with 9 samples.

Results

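Malat1, Neat1, Meg3, Kcnq1ot1, Gas5 and Snhg1 are 6 long noncoding RNA genes that were followed through 9 RNA-seq libraries of whole mouse kidney. They were chosen by symbol from earlier results of these same libraries, in which values of long noncoding RNAs and the composition of each library were in view, so their levels and differences between groups are given as a description. All 6 were found among the 52160 gene symbols analysed. The libraries form 3 groups of 3, from mice of the C57Bl/6N background at 16 weeks of age. In Ybx1ΔPod kidneys the gene for Y-box binding protein 1, a cold shock protein that binds RNA and DNA, was deleted from podocytes, the filtering epithelial cells of the glomerulus. In Ybx1K2A kidneys, called K2A here, podocytes carried a secretion-deficient Ybx1 that lacks the lysines on which its acetylation and export depend (the changes K299A and K302A, both in exon 7). Wild-type (WT) kidneys carried neither change, and the labels name a commercial supplier for WT mice only. The driver of the podocyte deletion and the sex of the mice are not given in the sources used here. Podocytes are a small share of a whole kidney, so a difference in a whole-kidney library can come from any cell type, and fewer cells of a type and less RNA per cell cannot be told apart.

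The 6 RNAs fall into 3 kinds. Malat1 and Neat1 lie close together on chromosome 19 and stay in the nucleus: Malat1 is found in nuclear speckles, where splicing factors collect, and the long isoform of Neat1 is the scaffold of paraspeckles. Meg3 and Kcnq1ot1 are imprinted: Meg3 is transcribed from the maternal copy of the Dlk1-Dio3 domain, and Kcnq1ot1 from the paternal copy of an intron of Kcnq1, antisense to it, where it represses neighbouring genes in cis. Gas5 and Snhg1 carry small nucleolar RNAs (snoRNAs), guides of ribosomal RNA modification, in their introns. Such host RNAs are known to begin with a 5′ terminal oligopyrimidine tract, as the messengers of ribosomal proteins do. Their spliced exons encode no long protein, and ribosomes that read them lead to their removal by nonsense-mediated decay.

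In mm10, with GENCODE vM21 gene models, Malat1 spans chr19:5795690-5802672 on the minus strand and Neat1 chr19:5824708-5845478 on the minus strand. Meg3 spans chr12:109541001-109571726 on the plus strand and Kcnq1ot1 chr7:143203458-143296549 on the minus strand, inside Kcnq1, which lies on the plus strand. Gas5 spans chr1:161034422-161038539 and Snhg1 chr19:8723475-8726443, both on the plus strand. The values are of exons of these noncoding genes, which have no coding sequence and no untranslated regions. The strand setting of the counting is not given in the sources used here, so reads of Kcnq1ot1 and of Kcnq1, and those of Gas5 and its antisense neighbour Zbtb37, may not be fully separated.

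The libraries were made from polyadenylated RNA, and the 6 RNAs end in different ways, so sequences at or near their 3′ ends are shown from the GENCODE vM21 transcripts, on chromosome 19 except for Gas5 on chromosome 1. As background, Malat1 and the long Neat1 isoform are cut by RNase P and are held by a triple helix between T-rich stretches and an A-rich end encoded in the genome, in place of an added poly(A) tail. Capitals mark runs of at least 5 T and the longest A run in Malat1, runs of at least 4 T or A in the long Neat1 isoform, and the poly(A) signal in the others, each printed 5′ to 3′ as DNA letters.
Malat1-201, bases 6564 to 6693: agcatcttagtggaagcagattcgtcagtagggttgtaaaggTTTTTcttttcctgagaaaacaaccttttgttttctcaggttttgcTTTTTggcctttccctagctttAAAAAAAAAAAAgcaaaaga
Neat1-201, bases 20672 to 20771: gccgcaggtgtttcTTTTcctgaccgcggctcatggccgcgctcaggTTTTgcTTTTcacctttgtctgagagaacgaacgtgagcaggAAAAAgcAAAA
Neat1-202, bases 2945 to 3004: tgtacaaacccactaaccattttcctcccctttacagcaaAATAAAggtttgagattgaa
Snhg1-211, bases 546 to 605: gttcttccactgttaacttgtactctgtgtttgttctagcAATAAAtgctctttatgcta
Gas5-220, bases 734 to 793: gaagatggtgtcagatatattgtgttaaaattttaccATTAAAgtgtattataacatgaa
The longest A run of Malat1-201 is 12 bases, and the annotated transcript goes on for 298 bases after it, to a length of 6983, with a poly(A) signal at its annotated end. A poly(A) signal was found in the last 40 bases of 3 of 4 annotated Malat1 transcripts, 1 of 4 Neat1, 4 of 11 Meg3, 17 of 25 Gas5 and 10 of 18 Snhg1 transcripts, and of the single Kcnq1ot1 transcript. Which of these ends the counted reads came from was not tested, since the counts are per gene.

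The starts of Gas5 and Snhg1 are shown because both RNAs were compared with the ribosomal protein genes, whose messengers begin with a pyrimidine tract. RefSeq promoters of GRCm38.p6, from 60 bases before to 50 bases after the start on the plus strand, are printed 5′ to 3′, and capitals mark the tract searched for, a C followed by at least 5 bases that are each C or T, on the sense strand, beginning within 10 bases of the start.
Gas5, chr1:161035106-161035215: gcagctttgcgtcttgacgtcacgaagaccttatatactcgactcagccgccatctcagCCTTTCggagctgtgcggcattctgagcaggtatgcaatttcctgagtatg
Snhg1, chr19:8723427-8723536: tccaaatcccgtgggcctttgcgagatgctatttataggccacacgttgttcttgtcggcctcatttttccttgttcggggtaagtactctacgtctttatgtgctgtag
The tract was present at this Gas5 start and not at the other Gas5 start in the table, chr1:161034541-161034650, nor at the Snhg1 start. Of the 6 genes 5 had an entry (Neat1 had none). Such a tract stood at 1 or more starts of 21.9% of all 27025 genes with an entry, of 54.4% of 57 ribosomal protein genes and of 42.1% of 19 listed snoRNA host genes. A match of letters is a description and not a measured start of these transcripts.

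Levels are in CPM, the usual unit of counts relative to library size, after scaling by trimmed mean of M-values (TMM), and the libraries held 30776806 to 46852490 counts. The following features of each library are set beside the members throughout: the share of its counts in 77 cytosolic ribosomal protein genes and the share in 37 mitochondrially encoded symbols. The ribosomal protein share was 7.68%, 4.16% and 1.11% in Ybx1ΔPod libraries 1 to 3, 3.75%, 3.82% and 0.975% in K2A libraries 1 to 3, and 1.14%, 2.38% and 1.07% in WT libraries 1 to 3. The mitochondrial share was 1.60%, 1.80% and 11.6% in Ybx1ΔPod, 7.33%, 7.07% and 8.83% in K2A, and 3.97%, 1.5% and 3.58% in WT. Each group thus held libraries above and below a ribosomal protein share of 2%, the third library being below it in every group, and the mitochondrial share of all 3 K2A libraries was above that of all WT libraries (exact permutation test, two-sided, p = 0.1, the smallest that 3 against 3 allows). The other differences in share had exact permutation p-values from 0.3 to 0.8 for Ybx1ΔPod and 0.4 for K2A against WT in ribosomal protein share. The first principal component of all genes held 71.5% of the variance, and on it Ybx1ΔPod 3 and K2A 3 lay with WT 1 and WT 3, away from the other mutant libraries.

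Ybx1, the targeted gene, was at 1167, 881 and 605 CPM in Ybx1ΔPod and 1078, 1152 and 554 CPM in K2A, against 1190, 1585 and 1185 CPM in WT. All mutant libraries were below all WT libraries in Ybx1, with log2 fold changes of -0.58 and -0.51 and edgeR adjusted p-values of 0.465 and 0.725. The gap was narrow, 1167 CPM in Ybx1ΔPod 1 against 1185 CPM in WT 3. The share of all genes that lie below WT in this way is not given here. The Ybx1 count covers the whole gene and all kidney cells, and whether it includes the deleted part is not given in the sources used here. Xist, the RNA of the inactive X chromosome, had 17.0, 18.8 and 124 CPM in Ybx1ΔPod and 30.9, 30.6 and 331 CPM in K2A, and was listed at 0 in all WT libraries. Since Xist is made in female cells, genotype and sex cannot be told apart in comparisons with WT, for the members as for any gene.

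Malat1 was high in all K2A kidneys. It stood at 263, 264 and 426 CPM in K2A and at 69.8, 42.8 and 91.8 CPM in WT, so that the lowest K2A library lay above the highest WT library. In Ybx1ΔPod it was at 31.2, 39.0 and 286.6 CPM: libraries 1 and 2 lay below every WT library and library 3 above all of them. The group means were 119 ± 145 CPM in Ybx1ΔPod, 318 ± 93.8 CPM in K2A and 68.1 ± 24.5 CPM in WT (SD, n = 3 each), and in Ybx1ΔPod the SD exceeded the mean. The log2 fold change was 2.22 (SE 0.83) for K2A against WT, about 4.66-fold, with an edgeR adjusted p of 0.355. For Ybx1ΔPod against WT it was 0.80 (SE 0.80), adjusted p = 0.611 by edgeR, and without Ybx1ΔPod library 3 it was -0.99. With mitochondrial share in the fit the values were 0.71 for K2A and -0.14 for Ybx1ΔPod, and with ribosomal protein share 3.02 and 1.29. The K2A and WT libraries did not overlap in mitochondrial share, so the value of 0.71 relies on extending the slope within groups. With 862 to 17605 reads a library, counting error is small for Malat1 and the spread is between libraries.

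Neat1 varied widely within each group. It had 81.2, 46.4 and 118 CPM in Ybx1ΔPod, 48.1, 42.5 and 222 CPM in K2A, and 13.3, 59.7 and 33.0 CPM in WT. WT library 2 lay above K2A libraries 1 and 2, and the groups overlapped. The means were 81.9 ± 35.8 CPM in Ybx1ΔPod, 104 ± 102 CPM in K2A and 35.3 ± 23.3 CPM in WT (SD, n = 3 each). The log2 fold changes were 1.21 (SE 0.77) for Ybx1ΔPod and 1.56 (SE 0.78) for K2A against WT, with edgeR adjusted p-values of 0.455 and 0.552. Without K2A library 3 the log2 fold change was 0.32 for K2A against WT and -0.87 for K2A against Ybx1ΔPod, beside 0.35 with it, and without WT 2 it was 1.81 in Ybx1ΔPod and 2.16 in K2A against WT. Both nuclear RNAs were alike in being highest in K2A 3 and second highest in Ybx1ΔPod 3, and they differed in the other K2A libraries, where Malat1 was high and Neat1 was not.

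Kcnq1ot1 was the only member with both mutant groups above WT without overlap. It had 1.16, 0.633 and 1.27 CPM in Ybx1ΔPod, 1.21, 1.01 and 1.65 CPM in K2A, and 0.471, 0.429 and 0.297 CPM in WT, and every library of either mutant group lay above all WT libraries. These levels rest on few reads, 27 to 63 per Ybx1ΔPod library, 34 to 68 per K2A library and 12 to 17 per WT library. Summed over a group they were 122 reads in Ybx1ΔPod (exact Poisson 95% interval 101 to 146), 141 in K2A (119 to 166) and 44 in WT (31.97 to 59.1), intervals that cover counting error only. The log2 fold change was 1.35 (SE 0.41) for Ybx1ΔPod and 1.69 (SE 0.41) for K2A against WT, about 2.55-fold and 3.22-fold. The edgeR adjusted p was 0.235 and 0.135, and DESeq2, run as an alternative, gave 0.0627 and 0.0141. Kcnq1, the potassium channel gene on the opposite strand, had 6.69, 17.7 and 52.8 CPM in Ybx1ΔPod, 16.2, 16.1 and 43.4 CPM in K2A, and 44.9, 26.7 and 45.3 CPM in WT. The channel gene was lowest where the ribosomal protein share was high and did not separate the groups as Kcnq1ot1 did.

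Of the 11 tested genes of the Kcnq1 imprinted domain, Kcnq1ot1 itself among them, 0 passed the test in any comparison. With Kcnq1ot1 counted, 6 had a positive value in Ybx1ΔPod and 7 in K2A against WT. Cdkn1c, a cell cycle inhibitor that Kcnq1ot1 silences on the paternal copy, stood at 28.3, 35.8 and 66.0 CPM in Ybx1ΔPod, 70.8, 69.4 and 38.5 CPM in K2A, and 47.9, 40.9 and 44.6 CPM in WT. Slc22a18, a transporter of the same domain, stood at 122, 246 and 518 CPM in Ybx1ΔPod, 228, 277 and 211 CPM in K2A, and 858, 599 and 811 CPM in WT. Both mutant groups of Slc22a18 lay below all WT libraries, with log2 fold changes of -1.36 and -1.66 and edgeR adjusted p-values of 0.303 and 0.222. Slc22a18 was picked after values were seen, and the share of all genes that lie below WT in this way is not given here. Phlda2 and Tssc4 of the same domain had positive values, 0.31 and 0.36 in Ybx1ΔPod and 0.15 and 0.56 in K2A. A relation of these genes to the level of Kcnq1ot1 was not tested.

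Meg3 was close to the limit of detection. It had 7, 14 and 11 reads in Ybx1ΔPod, 10, 18 and 15 in K2A, and 2, 8 and 2 in WT, which gives 0.253, 0.328 and 0.222 CPM in Ybx1ΔPod, 0.310, 0.534 and 0.363 CPM in K2A, and 0.0554, 0.229 and 0.0494 CPM in WT. All K2A libraries lay above all WT libraries, while Ybx1ΔPod library 3 lay just below WT library 2. Over the groups there were 32 reads in Ybx1ΔPod (exact Poisson 95% interval 21.9 to 45.2), 43 in K2A (31.1 to 57.9) and 12 in WT (6.201 to 20.96). The log2 fold changes were 1.26 (SE 0.62) and 1.84 (SE 0.62) for Ybx1ΔPod and K2A against WT, with edgeR adjusted p-values of 0.390 and 0.289. WT 2 held 8 of the 12 WT reads, and without it the values were 2.26 and 2.85. Rian, the maternally expressed RNA next to Meg3, had 0.940, 1.01 and 0.242 CPM in Ybx1ΔPod, 0.620, 0.860 and 0.194 CPM in K2A, and 0.194, 0.115 and 0.173 CPM in WT. Rian thus stood out in the mutant libraries with a ribosomal protein share above 2%, whereas the third library of each mutant group was near the WT level. Of the 3 tested genes of the Dlk1-Dio3 domain, Meg3 itself among them, 0 passed the test in any comparison. Dlk1, its paternally expressed coding gene, had log2 fold changes of -0.04 in Ybx1ΔPod and -0.28 in K2A against WT.

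Of the snoRNA hosts among the members, Snhg1 varied far more between libraries than Gas5. Gas5 had 104, 64.0 and 39.98 CPM in Ybx1ΔPod, 49.1, 53.9 and 46.7 CPM in K2A, and 30.8, 53.6 and 32.7 CPM in WT. Snhg1 had 78.0, 26.6 and 3.99 CPM in Ybx1ΔPod, 17.7, 22.4 and 5.83 CPM in K2A, and 2.72, 9.85 and 3.76 CPM in WT. In each group the third library of the mutants was low and, of the WT libraries, the second was high, for both genes. Snhg1 averaged 36.2 ± 37.9 CPM in Ybx1ΔPod, 15.3 ± 8.53 CPM in K2A and 5.44 ± 3.85 CPM in WT (SD, n = 3 each), and the groups overlapped. The log2 fold changes of Snhg1 were 2.73 (SE 1.01) for Ybx1ΔPod and 1.49 (SE 0.97) for K2A against WT, and those of Gas5 were 0.83 (SE 0.39) and 0.35 (SE 0.39). The edgeR adjusted p-values were 0.318 and 0.686 for Snhg1, and 0.381 and 0.794 for Gas5. Single libraries weighed on Snhg1: in Ybx1ΔPod it was 1.49 without Ybx1ΔPod 1 and 3.45 without WT 2, and in K2A 2.22 without WT 2. Gas5 in Ybx1ΔPod was 0.41 without Ybx1ΔPod 1. With ribosomal protein share in the fit Snhg1 was 0.57 in Ybx1ΔPod and 0.53 in K2A against WT, and with mitochondrial share 2.51 and 3.64. The snoRNAs themselves carry no poly(A) tail, and Snord22 in Snhg1 had 90 reads in the 9 libraries together, so these values are of the host exons.

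**Figure D1:**
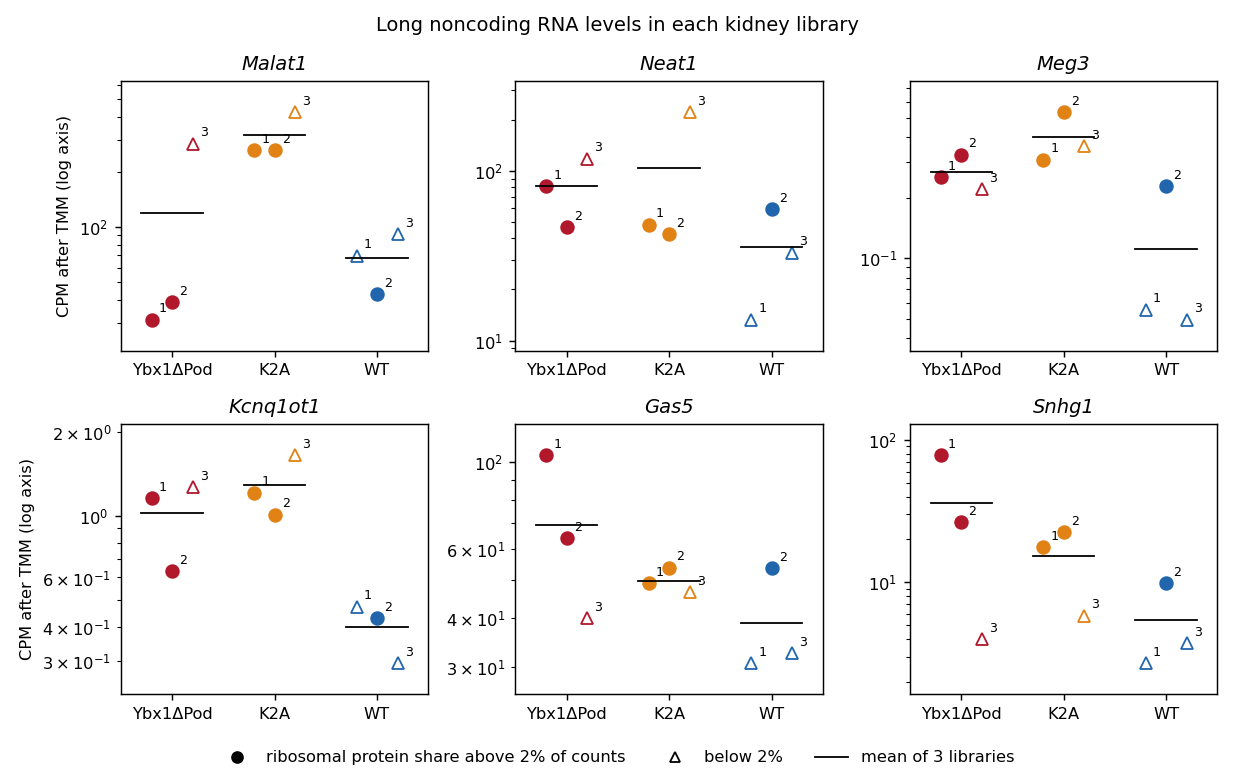
CPM after TMM scaling (log axis) of each of the 6 RNAs in the 3 Ybx1ΔPod, 3 K2A and 3 WT libraries; numbers are replicates, bars are means of 3, filled circles are libraries with a ribosomal protein share above 2% and open triangles those below it. Kcnq1ot1 separates both mutant groups from WT, Malat1 and Meg3 separate K2A from WT, and Snhg1 is low in every library below 2%.

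Over all genes, 178 of the 18067 tested passed an adjusted p of 0.05 for Ybx1ΔPod against WT (0.985%), 153 for K2A against WT (0.847%) and 0 for K2A against Ybx1ΔPod (0%), and 0 of the 6 members passed in any of the 3 comparisons. At an unadjusted p under 0.05 there were 2, 3 and 0 members, against 13.8%, 10.6% and 2.01% of all genes, and DESeq2 called 0, 1 and 0 of the 5 members it gave an adjusted p (none for Malat1), against 5.57%, 5.07% and 0.106% of the genes that had one. All libraries of the mutant group lay above all WT libraries for 1 of the 6 members in Ybx1ΔPod, against 8.73% of all tested genes, and for 3 of the 6 in K2A, against 11% of all genes. All 6 had a positive value against WT in both mutant groups, beside 53.4% and 55.6% of all genes. Their median log2 fold change was 1.24 in Ybx1ΔPod and 1.62 in K2A against WT, beside 0.08 and 0.09 over all genes. Both comparisons use the same WT libraries, and the genes were chosen with these values known, so nothing is read from the shared direction.

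Between the mutant groups, K2A against Ybx1ΔPod, the log2 fold changes were 1.42 for Malat1, 0.35 for Neat1, 0.58 for Meg3, 0.34 for Kcnq1ot1, -0.48 for Gas5 and -1.24 for Snhg1. Every adjusted p was 1 by edgeR. The members overlapped between these groups in each case. In same-numbered libraries Malat1, Meg3 and Kcnq1ot1 were higher in K2A in 3 of 3 pairs, and Neat1, Gas5 and Snhg1 in 1 of 3. Same-numbered libraries deviated together, but libraries 1 and 2 did so across numbers as well, so which of these belong together is not settled by the data. With the number as a block Malat1 was 2.01 (SE 0.58) and Snhg1 -0.91 (SE 0.78), and every edgeR adjusted p stayed at 0.985 or above. Without Ybx1ΔPod 3 Malat1 was 3.18, and without Ybx1ΔPod 1 Snhg1 was -0.00096. The standard errors, from 0.39 to 0.96, leave differences of several fold in Malat1, Neat1 and Snhg1 undetectable with 3 libraries a group.

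**Figure D2:**
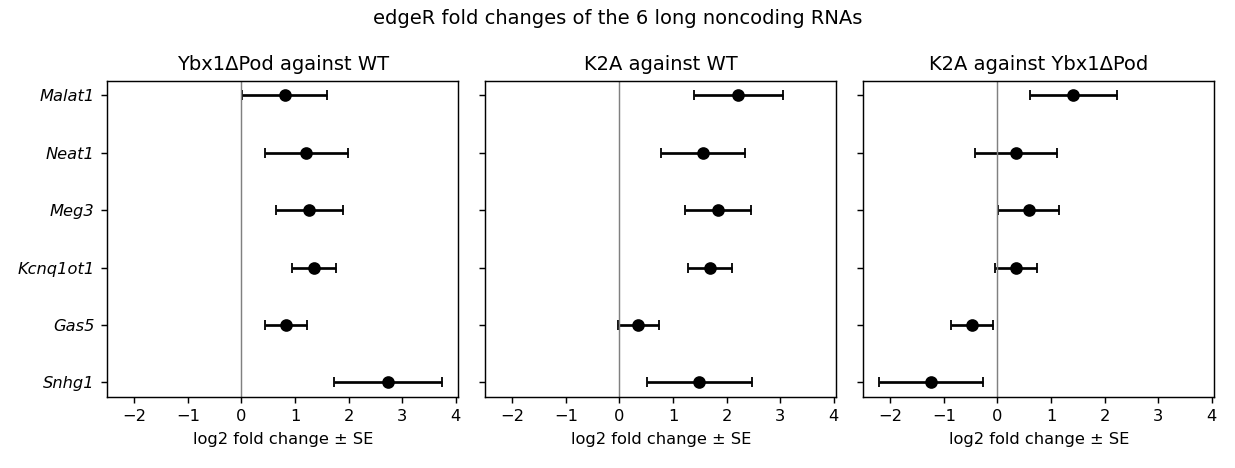
Log2 fold changes with their standard errors (bars) of the 6 RNAs from 1 edgeR fit of 9 libraries, for Ybx1ΔPod against WT, K2A against WT and K2A against Ybx1ΔPod. Values against WT are all above 0, the smallest SE is that of Gas5 and the widest that of Snhg1 (1.01).

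Per kilobase of merged annotated exon, the order in WT kidneys was Gas5 at 10.4 ± 3.37, Malat1 at 9.76 ± 3.51, Snhg1 at 1.83 ± 1.30 and Neat1 at 1.70 ± 1.12 CPM per kilobase (SD, n = 3). Gas5 and Malat1 did not differ there beyond their spread, nor did Snhg1 and Neat1. Meg3 and Kcnq1ot1 were far lower, at 0.00615 ± 0.00564 and 0.00429 ± 0.000980 CPM per kilobase. In K2A kidneys Malat1 came first at 45.5 ± 13.4, with Gas5 at 13.3 ± 0.978, Snhg1 at 5.16 ± 2.87 and Neat1 at 5.01 ± 4.90 CPM per kilobase. In Ybx1ΔPod kidneys Gas5 at 18.4 ± 8.61, Malat1 at 17.0 ± 20.8 and Snhg1 at 12.2 ± 12.8 CPM per kilobase could not be ordered. Exons of all annotated isoforms were merged for these lengths, 6983 bases for Malat1, 20771 for Neat1, 3760 for Gas5 and 2969 for Snhg1. The order depends on this choice. Neat1-202, the Neat1 transcript with a poly(A) signal, has 3004 bases, and division by that length would place Neat1 higher. Which isoforms were counted was not tested.

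Set against the composition of the libraries, Malat1 followed the mitochondrial share. In order of that share, from 1.5% in WT 2 to 11.6% in Ybx1ΔPod 3, the 3 libraries under 2% (WT 2, Ybx1ΔPod 1 and 2) had 42.8, 31.2 and 39.0 CPM of Malat1. The next 2, WT 3 and WT 1, had 91.8 and 69.8 CPM. The 4 highest, K2A 2, K2A 1, K2A 3 and Ybx1ΔPod 3, had 264, 263, 426 and 286.6 CPM. The steps in Malat1 therefore lay where the steps in mitochondrial share lay, and the Ybx1ΔPod library with the high share was the only one of its group with high Malat1. With group in the fit, the slope of Malat1 was 1.03 log2 units (SE 0.12) per log2 unit of mitochondrial share, above those of 95.7% of all tested genes, whose median slope was 0.0038.

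Snhg1 followed the ribosomal protein share. The 4 libraries under 2% had 5.83, 3.76, 3.99 and 2.72 CPM in K2A 3, WT 3, Ybx1ΔPod 3 and WT 1. Above 2% the value climbed with each step of the share, from 9.85 CPM in WT 2 through 17.7 in K2A 1, 22.4 in K2A 2 and 26.6 in Ybx1ΔPod 2 to 78.0 in Ybx1ΔPod 1. Its slope with group in the fit was 1.29 (SE 0.13) per log2 unit of ribosomal protein share, above those of 97.6% of genes, and -1.36 (SE 0.25) per log2 unit of mitochondrial share, below all but 1.48%. Gas5 took the same signs with a smaller size, 0.36 (SE 0.088) and -0.43 (SE 0.11), and Malat1 the opposite sign on ribosomal protein share, -0.92 (SE 0.15).

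The remaining members had slopes within 2 SE of 0 on both shares. On mitochondrial share they were 0.11 (SE 0.35) for Neat1, -0.34 (SE 0.25) for Meg3 and 0.15 (SE 0.17) for Kcnq1ot1. On ribosomal protein share they were -0.41 (SE 0.27) for Neat1, 0.23 (SE 0.21) for Meg3 and -0.16 (SE 0.14) for Kcnq1ot1. No p-value is given for these slopes, because the relation was part of how the genes were chosen and the libraries fall into clusters. All counts of a library share 1 denominator. Relative to library totals without the mitochondrial and ribosomal protein genes, and without TMM, Malat1 was at 28.7, 45.8 and 348 CPM in Ybx1ΔPod, 310, 297 and 490 CPM in K2A, and 71.3, 43.8 and 94.5 CPM in WT. Those genes hold too small a part of the counts for their removal to move values of this range, so the part of the denominator was not tested.

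**Figure D3:**
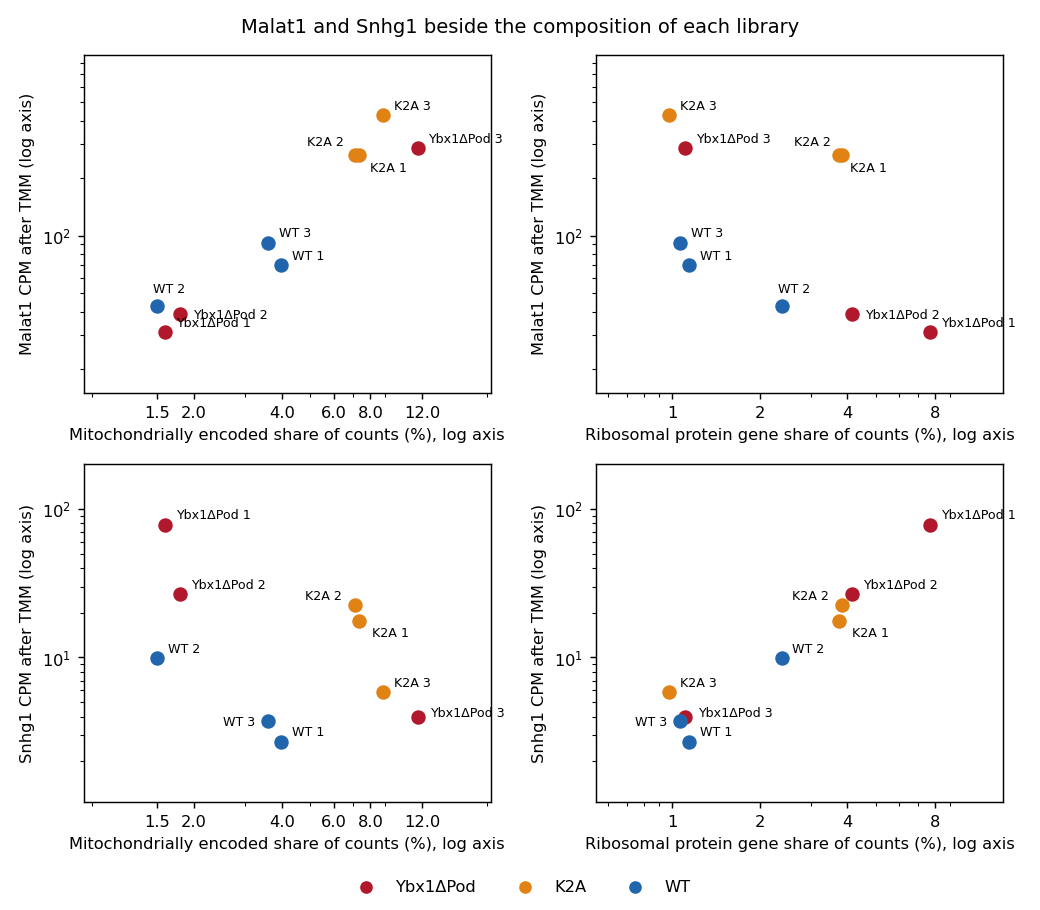
Malat1 (top) and Snhg1 (bottom) in CPM after TMM scaling against the mitochondrially encoded share (left) and the ribosomal protein gene share (right) of each library's counts, all axes logarithmic, with 1 point per library. Malat1 is high in the 4 libraries with a mitochondrial share of 7.07% or more, and Snhg1 climbs over the 5 libraries with a ribosomal protein share above 2%.

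Libraries alike in ribosomal protein share were also compared on their own, a choice made after the values were seen. They were not alike in mitochondrial share, so differences in Malat1 among them cannot be told apart from differences in that share. Below 2% the mitochondrial share was 11.6% in Ybx1ΔPod 3 and 8.83% in K2A 3, against 3.97% in WT 1 and 3.58% in WT 3. Among the 4 below 2%, Malat1 was at 286.6 CPM in Ybx1ΔPod and 426 CPM in K2A, against 69.8 and 91.8 CPM in WT. Neat1 was at 118 and 222 CPM in these mutant libraries, against 13.3 and 33.0 CPM in WT, and Kcnq1ot1 at 1.27 and 1.65 CPM, against 0.471 and 0.297 CPM. In the same libraries Snhg1 was at 3.99 CPM in Ybx1ΔPod and 5.83 CPM in K2A, against 2.72 and 3.76 CPM in WT, log2 fold changes of 0.31 and 0.86. Each mutant group has 1 library here, assumed in the fit to vary as the WT pair did, so the calls given in the closing part are those of single libraries.

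Among the 5 libraries above 2% the picture was another. Malat1 was at 31.2 and 39.0 CPM in Ybx1ΔPod and at 263 and 264 CPM in K2A, against 42.8 CPM in the single WT library. The mitochondrial share of these libraries was 1.60% and 1.80% in Ybx1ΔPod and 7.33% and 7.07% in K2A, against 1.5% in WT. Neat1 was at 81.2 and 46.4 CPM in Ybx1ΔPod and 48.1 and 42.5 CPM in K2A, against 59.7 CPM. Kcnq1ot1 was higher in these mutant libraries too, at 1.16 and 0.633 CPM in Ybx1ΔPod and 1.21 and 1.01 CPM in K2A, against 0.429 CPM. The log2 fold change against WT had the same sign on each side of 2% for Meg3, Kcnq1ot1 and Snhg1 in both mutants, for Malat1 in K2A, and for Neat1 and Gas5 in Ybx1ΔPod. It turned for Malat1 in Ybx1ΔPod (1.84 below 2% and -0.34 above it), for Neat1 in K2A (3.27 and -0.43) and for Gas5 in K2A (0.57 and -0.10). Each side has a group of 1 library, so these signs rest on single libraries.

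Gas5 and Snhg1 belong to a list of 22 snoRNA host genes, which also holds Mir22hg, the host of a microRNA. Of the 21 tested, 0 passed the test in any comparison, and all 21 had a positive value in Ybx1ΔPod (median log2 fold change 1.66) and in K2A (1.23) against WT, as had all 77 ribosomal protein genes (medians 1.48 and 0.80). For K2A against Ybx1ΔPod 2 of the 21 were positive, with a median of -0.71. The highest of the 9 libraries was Ybx1ΔPod 1, which has the highest ribosomal protein share, for 20 of the 21, against 32.1% of all tested genes. All 5 libraries above 2% lay over all 4 below it for 16 of the 21, against 26.5% of all genes and 77 of 77 ribosomal protein genes, which define that share.

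Zfas1, an antisense RNA that hosts box C/D snoRNAs, had the widest range of the snoRNA hosts in Ybx1ΔPod, with 233, 63.5 and 9.90 CPM, against 50.5, 55.3 and 13.7 CPM in K2A and 6.99, 23.2 and 7.54 CPM in WT. It was ordered over the libraries nearly as Snhg1 was. Snhg11 was the exception: it stood at 23.0, 13.1 and 26.4 CPM in Ybx1ΔPod and 31.2, 33.7 and 40.6 CPM in K2A, against 0.859, 6.04 and 2.35 CPM in WT, and was the only host highest in another library, K2A 3. Every mutant library of Snhg11 lay above every WT library, with log2 fold changes of 2.75 (SE 0.65) and 3.51 (SE 0.67) and edgeR adjusted p-values of 0.112 in Ybx1ΔPod and 0.0573 in K2A. This separation was not particular to Snhg11, since Snhg4, Snhg5 and Snhg17 had it too. Of all tested genes, 8.73% lay above WT without overlap in Ybx1ΔPod and 11% in K2A.

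**Figure D4:**
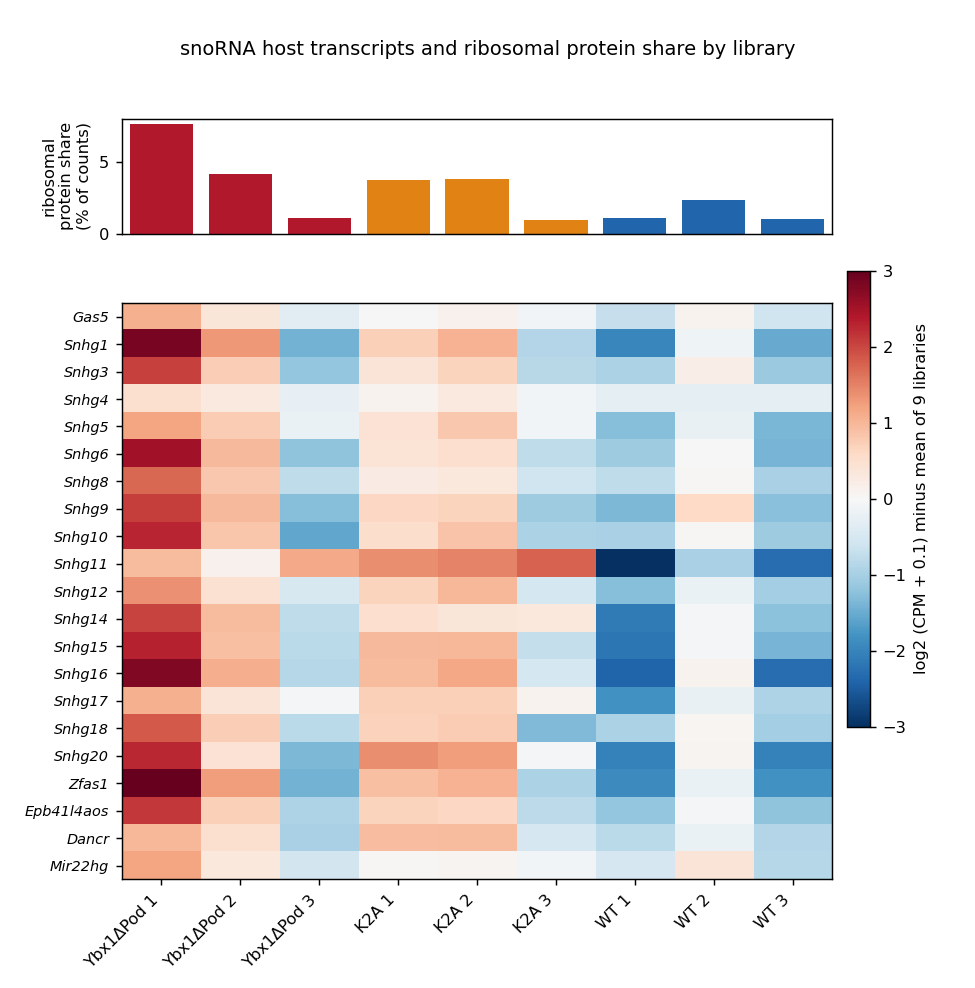
Top, ribosomal protein gene share of counts (%) in each library; bottom, log2 (CPM + 0.1) of 21 tested host genes minus each gene's mean over the 9 libraries, with colours ending at 3 and -3, for Ybx1ΔPod, K2A and WT from left to right. Most hosts are red where the bar is tall, and Snhg11 is red in all mutant libraries and blue in WT.

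Of the genes around these RNAs none passed the test in any comparison. Nonsense-mediated decay factors, which remove Gas5 and Snhg1 transcripts, had a positive value for 2 of 17 in Ybx1ΔPod and 3 of 17 in K2A against WT (medians -0.68 and -0.35). Translation factors whose messengers carry a 5′ pyrimidine tract were positive for 13 of 18 in both (0.74 and 0.52). The snoRNP protein genes were positive for 4 and 3 of 8 (-0.05 and -0.25). Paraspeckle protein genes, the partners of Neat1, were positive for 5 and 6 of 19 (-0.35 and -0.29), and nuclear speckle genes for 6 and 9 of 16 (-0.17 and 0.14). Genes activated by the tumour suppressor p53 were positive for 7 and 9 of 14 (0.15 and 0.22). The medians of these lists lay near the median of all genes, 0.08 and 0.09, or below it, apart from the translation factors. Of all tested genes 53.4% and 55.6% had a positive value in Ybx1ΔPod and K2A against WT. The decay factors varied within the mutant groups: 8 of 17 were highest in K2A 3, with the lowest ribosomal protein share, against 18.4% of all genes. In Ybx1ΔPod 1, with the highest share, 1 of 17 was highest, against 32.1% of all genes. A relation of these lists to the members was not tested.

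Other nuclear or regulatory long noncoding RNAs did not share 1 direction. A list of 22 holds Malat1, Neat1, Meg3 and Kcnq1ot1 and also Norad, an RNA found largely in the cytoplasm. Of it 18 were tested and 0 called, and of the 14 that are not members 11 had a positive value in Ybx1ΔPod and 9 in K2A against WT (medians 0.95 and 0.48). Among these 14, Xist, Ftx, Jpx and Firre lie on the X chromosome, and all of them were positive in both mutants. For these RNAs too, genotype and sex cannot be told apart. Firre, an X-linked RNA that organises chromatin, had 21.0, 11.8 and 9.51 CPM in Ybx1ΔPod and 19.5, 20.3 and 33.2 CPM in K2A, against 0.554, 6.07 and 1.73 CPM in WT. Norad, by contrast, had 8.21, 20.5 and 71.8 CPM in Ybx1ΔPod and 10.9, 11.0 and 69.9 CPM in K2A, against 56.8, 31.2 and 68.7 CPM in WT. Tug1 was distributed like Norad, with 7.56, 18.9 and 46.5 CPM in Ybx1ΔPod and 14.8, 13.4 and 59.4 CPM in K2A, against 40.7, 24.9 and 45.6 CPM in WT. Norad and Tug1 were low where the ribosomal protein share was high, the reverse of Snhg1.

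Likeness was measured as Pearson's r of log2 CPM over the 9 libraries, for genes with a mean of at least 1 log2 CPM (11815 candidates for an abundant member), and up to 5 of the closest genes were named for each member. The libraries share their composition, so r is a description and carries no p-value. For Malat1 they were mt-Co1, a mitochondrially encoded subunit of cytochrome oxidase (r = 0.97), the splicing kinase Clk2 (0.97), Zfp513, Rbms2 and Zbtb49. For Neat1 they were Pnisr (0.93), Pik3c2g, Ttc14, Epc1 and Coq10b, and for Meg3 they were Ltc4s (0.94), Napb, Rgs11, Zfp692 and Polg2. Kcnq1ot1 was closest to Cep72 (0.96), Gpsm1 (0.94), Xist (0.93) and Stat2. Gas5 was closest to Borcs7 (0.98), Zfp975, Zfp772, Lsm8 and Zdhhc20. Snhg1 had the tightest neighbours: Zfp68 (0.997), the snoRNA host Zfas1 (0.997), 2610044O15Rik8, Ska2 and Zfp606.

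Among the members themselves Gas5 and Snhg1 were closest, with r = 0.95 over 9 libraries, which is also a description of libraries that share their composition. Malat1 was negatively related to both, at -0.41 for Gas5 and -0.36 for Snhg1, and its r with Neat1 was 0.41. Kcnq1ot1 had r of 0.71 with Neat1 and with Meg3, and 0.59 with Malat1.

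Markers of other tissues were high in some mutant libraries, and their part in the members' values was not tested. Summed over 9 adipocyte markers, levels were 532, 141 and 24.2 CPM in Ybx1ΔPod and 459, 1199 and 64.4 CPM in K2A, against 36.3, 80.1 and 32.3 CPM in WT. All 8 tested adipocyte markers had a positive value in both mutants, as had all 7 urothelium markers, whose sums were 44.8, 11.6 and 0.726 CPM in Ybx1ΔPod and 55.4, 67.6 and 8.23 CPM in K2A, against 10.2, 6.96 and 5.76 CPM in WT. Proximal tubule markers, the defining genes of the kidney cortex, were present in every library, with sums of 4870, 6590 and 14441 CPM in Ybx1ΔPod, 6225, 6739 and 8927 CPM in K2A, and 17211, 9664 and 17261 CPM in WT. Podocyte markers summed to 169, 289 and 941 CPM in Ybx1ΔPod, 256, 245 and 733 CPM in K2A, and 605, 289 and 632 CPM in WT. The podocyte sums were low in the libraries with a high ribosomal protein share, as Norad and Tug1 were. The proximal tubule sums were so with 1 exception: K2A 3, with the lowest share, was at 8927 CPM, below WT 2 at 9664 CPM. In Ybx1ΔPod 3 the adipocyte and urothelium sums were below those of every WT library. In that library Malat1, Neat1 and Kcnq1ot1 were above every WT library, and Meg3, Gas5 and Snhg1 were within the WT range.

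**Figure D5:**
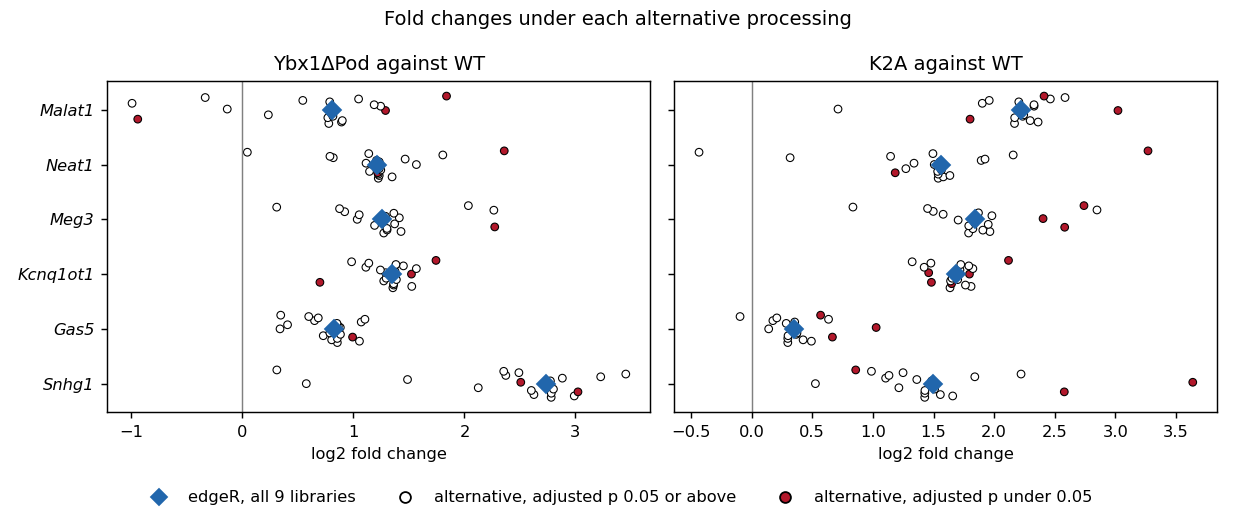
Log2 fold changes of the 6 RNAs against WT in edgeR with all 9 libraries (diamonds) and under each alternative (circles), red where the adjusted p was under 0.05, for Ybx1ΔPod (left) and K2A (right). Kcnq1ot1 stays above 0 in every alternative shown, and Malat1 in Ybx1ΔPod crosses 0.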

How the data were processed

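Renal RNA was polyadenylated-selected and made into libraries with ScriptSeq v2, per the labels' protocols. The submitters' processing notes name the aligner STAR (2.7.3a) and the build mm10, the counter featureCounts (2.0.1), read trimming by Trim Galore (0.6.3) and DESeq2 (1.30.0). The authors deposited 2 tables of whole-number counts per gene symbol with the same WT columns (52182 and 52169 symbols, 52163 shared); 3 symbols with unequal WT counts were left out. The tables were joined, genes were filtered with filterByExpr (18067 kept), scaled by TMM and tested with edgeR 4.0.16 (quasi-likelihood, R 4.3.3) in 1 fit of 9 libraries with group alone, at a Benjamini-Hochberg adjusted p of 0.05 over all genes; log2 CPM used a prior count of 2. The procedure was tested on simulated data with changes larger than those of the members, spread capped at its median and no differences in library composition. That test therefore does not measure how the procedure performs on libraries like these. DESeq2 1.42.0, limma 3.58.1 (voom with sample weights), other scalings and filters, composition covariates and left-out libraries were alternatives.

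The members and gene lists were chosen with earlier results of these data known. Named genes are the 6 members, the listed host and nuclear RNAs, imprinted neighbours, the 5 genes most like each member by r (predicted genes left out, and 1 gene not reported here) and Ybx1; Slc22a18 and Cdkn1c were picked from their list after values were seen. The labels do not say whether libraries come from separate mice, so p-values measure the spread between these libraries. No pair of libraries of a group agreed within sampling noise (chi-square per gene at least 9.49). Same-numbered libraries deviated together for K2A and Ybx1ΔPod (r of deviations 0.76, 0.40 and 0.85), a sign taken from the data and not from the labels. Libraries 1 and 2 of unlike number did so too (0.77 for K2A 2 with Ybx1ΔPod 1, 0.44 for K2A 1 with Ybx1ΔPod 2), so only the third library was set apart. With the number as a block 0 genes were called in this comparison, as without it.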

Additional observations from a re-analysis of the deposited data

How the results depend on the processing

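Of 371 alternative values with an adjusted p for 18 log2 fold changes of members, 324 kept their direction and side of the threshold, 33 passed it and 14 reversed; DESeq2 gave Malat1 no adjusted p. The reversed log2 values were, for Malat1 in Ybx1ΔPod against WT, -0.94 with voom sample weights, -0.14 with mitochondrial share as covariate, from -0.99 without Ybx1ΔPod replicate 3 to 1.24 without replicate 1, and -0.34 in libraries above a ribosomal protein share of 2%. For Neat1 in K2A against Ybx1ΔPod they were -0.035 (voom), -0.061 (ribosomal protein covariate), from -0.87 without K2A replicate 3 to 0.72 without Ybx1ΔPod replicate 3, and -0.48 (above 2%). Above 2%, K2A against WT was -0.43 for Neat1 and -0.10 for Gas5. K2A against Ybx1ΔPod was 0.15 for Gas5 and 1.13 for Snhg1 with the mitochondrial covariate, and 0.22 and 0.55 below 2%. The cause was not tested.

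Members called were 6, 6 and 3 with voom (Ybx1ΔPod and K2A against WT, K2A against Ybx1ΔPod), where sample weights ran from 0.0826 to 11.6 and 78.9%, 78.9% and 28% of all genes were called; 1 in K2A with DESeq2 (Kcnq1ot1; 5.07% of genes); 2 in each mutant with the ribosomal protein covariate (Malat1 and Kcnq1ot1; 14.4% and 16.3% of genes); 1 in Ybx1ΔPod (Snhg1) and 4 in K2A (all but Malat1 and Neat1) with the mitochondrial covariate (6.59% and 31.5% of genes); and 3 in Ybx1ΔPod (Malat1, Neat1 and Kcnq1ot1) and 6 in K2A below 2%, where each mutant group is 1 library and 22.8% and 31% of genes were called. Upper-quartile scaling moved the median of all genes to 0.26 and 0.24.

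Genes called for Ybx1ΔPod against WT numbered 998 with DESeq2, 14246 with voom, 2607 with the ribosomal protein and 1190 with the mitochondrial covariate, 54 with 6 libraries, 46 above 2% and 4162 below it. For K2A against WT they were 909, 14262, 2948 and 5697, then 27 above 2% and 5647 below it, and for K2A against Ybx1ΔPod 19 (DESeq2), 5060 (voom), 125 (ribosomal protein covariate) and 1677 (below 2%). Leaving out a library gave 23 to 411, 3 to 173 and 0 to 2 genes, lowest without WT 3 and highest without Ybx1ΔPod 3 in the first of these. The replicate numbers do not pair mutant with WT libraries throughout. For same-numbered libraries r of deviations was -0.62 and -0.54 for number 1, and 0.44 to 0.76 for numbers 2 and 3. With the replicate block 270 and 232 genes and 0 members were called. The splits at 2% were chosen after seeing the data. Depth limits Meg3 and Kcnq1ot1, the other members having at least 98 reads a library.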
